A study of Mus musculus with 6 samples.

Results

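The genes described here are 8 that belong to the machinery of cavitation, the filling of the mouse blastocyst with fluid. They are the sodium pump subunits *Atp1b1*, *Atp1b2* and *Atp1b3*, the sodium-proton exchanger *Slc9a3*, and the water channels *Aqp3*, *Aqp8*, *Aqp9* and *Aqp11*. They were found by matching these symbols to the Ensembl identifiers of the expression table, and all 8 were among its 55774 rows. RNA was sequenced from 6 pools of 10 blastocysts, wild type embryos of ICR female mice that had been collected at the 2-cell stage according to the labels and cultured for 75 hours in CZB medium. The medium of both groups contained extracellular vesicles from human Fallopian tube fluid, from women with endometriosis (oEV-EMT, 3 libraries) or without it (oEV-ctrl, 3 libraries). The labels give uterine fibroids as the condition of the control donors, and the methods give cervical intraepithelial neoplasia. No pool cultured without vesicles was analysed here, and how donors were assigned to the 3 pools of a group is not given in the sources used here. The p-values therefore measure the spread between pools, which may be technical.

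During cavitation the outer cells of the embryo, the trophectoderm, seal with tight junctions and pump sodium across their basolateral side. The pump is made of a catalytic α subunit, a glycosylated β subunit that carries it to the membrane, and often a small FXYD protein that tunes it. Sodium enters from outside through transporters such as exchangers, water follows the salt gradient, and aquaporins let it pass the membranes.

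The deposited values are FPKM, that is fragments scaled to transcript length and library size, so that levels of different genes can be set beside each other. FPKM keep no read totals. In long genes with a single annotated transcript, however, the lowest values lay in steps, with 57.9% to 67.7% of them within 0.15 steps of a whole number, where an even spread gives 30%. These steps put the depth of the deepest library, oEV-EMT 1, at 2.06 times that of the shallowest, oEV-ctrl 1. The same libraries had the lowest shares near a whole number, 58.0% and 57.9%. In every library more values lay near 2 steps than near 1, from 271 against 177 in oEV-EMT 1 to 486 against 221 in oEV-ctrl 2. Whether a step is 1 fragment was not tested, so the depth ratio and the step counts that follow are uncertain. With the longest coding transcript as length, the 6 well expressed members rested on 415 to 13195 steps per library, *Atp1b2* on 6.5 to 30.0 and *Slc9a3* on at most 2.9. The groups were compared by limma on log2(FPKM + 1) in the 11924 genes that had at least 1 FPKM in at least 3 libraries, which understates the fold change of low genes. *Atp1b1*, *Atp1b3*, *Aqp3*, *Aqp8*, *Aqp9* and *Aqp11* passed this filter, and *Atp1b2* and *Slc9a3* did not.

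A gene was called where limma gave a p-value of 0.05 or less after Benjamini-Hochberg adjustment and the log2 fold change was 1 or more in size. None of the 6 tested members was called, and neither was any of the 11924 genes tested (0% called), with a smallest adjusted p-value of 0.0934. Before adjustment, 1831 genes had a limma p-value of 0.05 or less. By that measure 1 of the 6 members, *Atp1b3*, was higher in oEV-EMT and 0 were lower, beside 12.8% and 2.55% of all genes. The oEV-EMT libraries were also above every oEV-ctrl library in 1 of the 6, again *Atp1b3*, as they were in 18.1% of all genes. In 0 of the 6 were they below, against 4.34% of all genes. These shares are near those of all genes. The median log2 fold change was 0.37 over the 6 members and 0.17 over all genes tested.

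**Figure D1:**
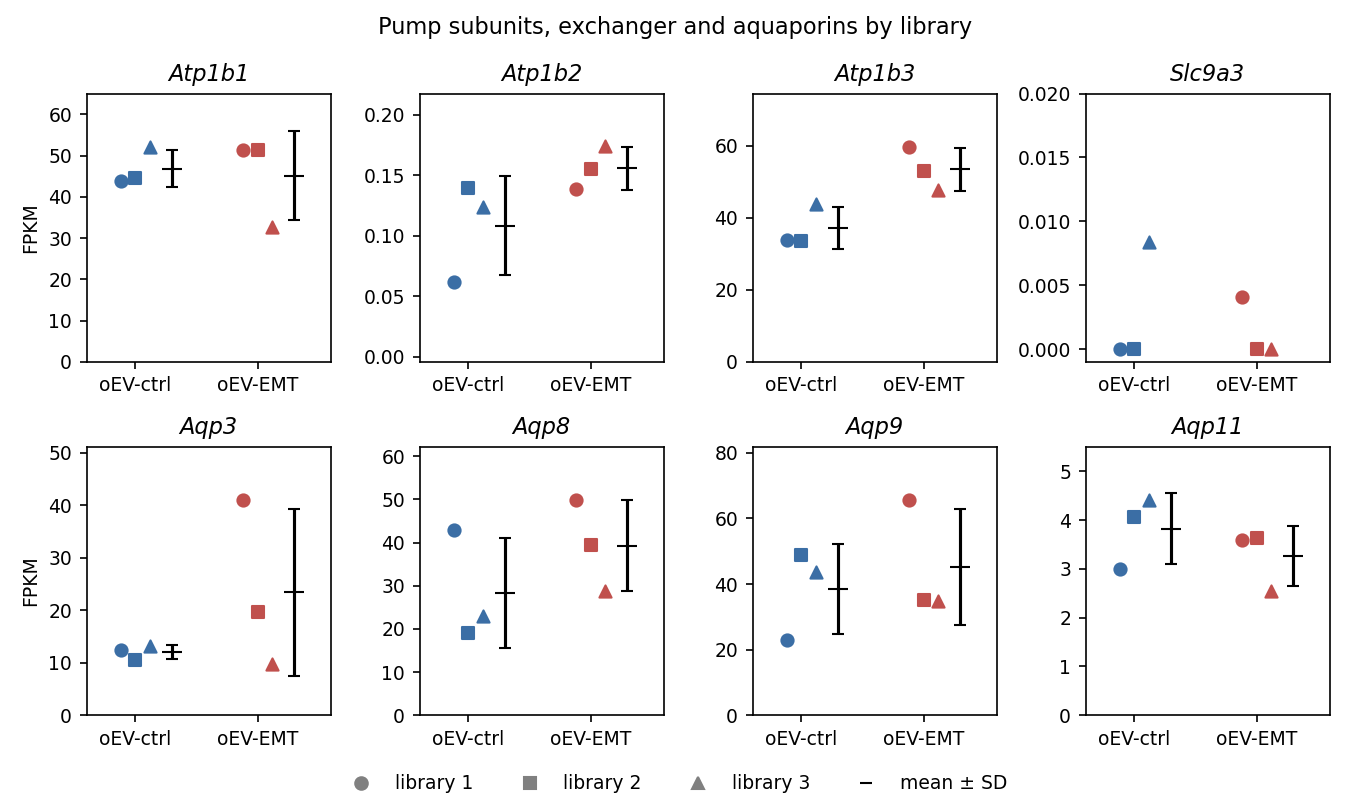
FPKM (vertical axes, a scale for each gene) of the 8 genes in the 3 oEV-ctrl and 3 oEV-EMT libraries, with the mean and SD of each group except for *Slc9a3*, which is listed at 0 in most libraries. Only in *Atp1b3* did the 3 oEV-EMT libraries, at 47.8 to 59.7, all lie above the oEV-ctrl libraries, at 33.7 to 43.8.

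The labelled tissue was checked on marker genes. All 6 trophectoderm markers (*Cdx2*, *Gata3*, *Krt8*, *Krt18*, *Eomes*, *Tfap2c*) were detected and overlapped between the groups, with a summed FPKM of 3097 to 4716 in oEV-EMT and 3059 to 4808 in oEV-ctrl. Most of this sum came from *Krt18* and *Krt8*, with means of 2573 and 1185 FPKM over all libraries. In the order listed, the log2 fold changes of the markers were 0.07, -0.26, -0.02, -0.02, -0.39 and 0.04. The 3 markers of the epiblast and inner cell mass summed to 71.2 to 80.2 in oEV-EMT and to 26.6 to 53.4 in oEV-ctrl. Of these, *Nanog* and *Pou5f1* lay above all oEV-ctrl values in every oEV-EMT library, with log2 fold changes of 1.11 and 0.97 (limma, adjusted p = 0.187 and 0.175). The third, *Sox2*, overlapped and had the lower mean in oEV-EMT, 1.87 against 2.43 FPKM, with a log2 fold change of -0.32 (limma, adjusted p = 0.632). The 4 primitive endoderm markers summed to 26.7 to 40.9 in oEV-EMT and to 27.998 to 33.9 in oEV-ctrl. Of them only *Gata4* did not overlap, being higher in oEV-EMT with a log2 fold change of 0.82 (limma, adjusted p = 0.174). In *Sox17*, *Pdgfra* and *Gata6*, which overlapped, it was 0.95, 0.08 and -0.19. Of the markers of cumulus and granulosa cells 3 of 5 were listed at 0 in every library, of blood 3 of 4, of oviduct epithelium 1 of 3 and of sperm 1 of 3. The summed FPKM of these 4 lists was at most 0.344, 2.22, 2.999 and 0.843. In pools of whole embryos, fewer cells of a type and less RNA per cell cannot be told apart.

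The promoters of *Atp1b1* and *Atp1b3*, whose balance is described below, and of the channels *Aqp3* and *Aqp8* are shown so that they can be set beside each other. They are the 250 bases before the transcription start of RefSeq on GRCm38.p6. In them, capitals mark every match on either strand to TATAAA, the core of the TATA box, to CCAAT, to GGAATG, the motif of the TEAD factors, or to GCCNNNGGC, the motif of the AP-2 factors. The windows shown are chr1:164458356-164458605 (minus strand), chr9:96364432-96364681 (minus), chr4:41098184-41098433 (minus) and chr7:123462044-123462293 (plus).
Atp1b1: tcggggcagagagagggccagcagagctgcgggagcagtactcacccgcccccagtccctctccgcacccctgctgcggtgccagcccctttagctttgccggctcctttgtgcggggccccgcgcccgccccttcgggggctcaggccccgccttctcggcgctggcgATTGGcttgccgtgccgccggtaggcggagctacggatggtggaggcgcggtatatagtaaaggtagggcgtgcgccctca
Atp1b3: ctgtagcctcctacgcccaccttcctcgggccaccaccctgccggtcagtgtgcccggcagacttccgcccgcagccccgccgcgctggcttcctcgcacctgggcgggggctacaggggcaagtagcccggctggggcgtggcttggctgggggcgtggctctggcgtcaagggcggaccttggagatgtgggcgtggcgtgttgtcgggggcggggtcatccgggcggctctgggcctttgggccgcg
Aqp3: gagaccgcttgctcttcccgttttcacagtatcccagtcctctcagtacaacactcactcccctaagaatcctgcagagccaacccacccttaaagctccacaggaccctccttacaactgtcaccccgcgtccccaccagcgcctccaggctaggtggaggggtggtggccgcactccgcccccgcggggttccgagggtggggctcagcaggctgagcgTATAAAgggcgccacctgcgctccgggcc
Aqp8: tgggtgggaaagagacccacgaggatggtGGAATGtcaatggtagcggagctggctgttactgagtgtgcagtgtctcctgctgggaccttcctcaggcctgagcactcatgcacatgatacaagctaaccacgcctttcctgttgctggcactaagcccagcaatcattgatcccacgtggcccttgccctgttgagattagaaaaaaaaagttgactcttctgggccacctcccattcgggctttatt

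These windows held G or C at 70.4% of bases in *Atp1b1*, 73.6% in *Atp1b3*, 64.0% in *Aqp3* and 52.4% in *Aqp8*, with a median of 52.4% over 32851 promoter windows. In *Atp1b1* a CCAAT motif, on the other strand, began 81 bases before the start. In *Aqp3* TATAAA began 29 bases before it, and in *Aqp8* GGAATG began 221 bases before it. No capitals appear in *Atp1b3*. Of all promoter windows, 33.8% held CCAAT, 12.4% TATAAA, 12.6% GGAATG and 13.7% GCCNNNGGC. Of the 8 genes, 7 had a window in the RefSeq table. The windows of *Aqp9*, *Aqp11* and *Slc9a3* held none of the 4 motifs. A match is a description of letters and not a site of binding.

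*Atp1b1* (ENSMUSG00000026576), the β1 subunit and the common β subunit of epithelia, is found at 164437109 to 164458355 of chromosome 1, minus strand (GRCm38, GENCODE M21). It had 51.4, 51.3 and 32.6 FPKM with oEV-EMT and 43.9, 44.6 and 52.0 with oEV-ctrl. The groups overlapped, with the lowest value in oEV-EMT 3 and the highest in oEV-ctrl 3. The means were 45.1 ± 10.8 and 46.9 ± 4.497 (SD, n = 3 libraries each), and the log2 fold change was -0.08 with a 95% interval from -0.59 to 0.44 (limma, adjusted p = 0.890). This sign turns with the scaling, as it was 0.012 after each library was scaled to a sum of 1000000. The 3′ end of *Atp1b1* overlaps exons of *Nme7*, a gene on the opposite strand that ends at 164437725, and 15.8% of the stretches of 50 bases in *Atp1b1* transcripts also occur there. *Nme7* had 64.1, 38.2 and 47.7 FPKM in oEV-EMT and 23.7, 41.8 and 37.8 in oEV-ctrl. The protocol does not state that strand was kept, and without it reads from the shared stretch cannot be told apart.

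*Atp1b3* (ENSMUSG00000032412), the β3 subunit, lies on the minus strand of chromosome 9 from 96332655 to 96364442. It had 59.7, 53.1 and 47.8 FPKM with oEV-EMT and 33.8, 33.7 and 43.8 with oEV-ctrl. The groups did not overlap, for which the exact permutation test, two-sided, gave p = 0.1. No smaller p can be had from 3 libraries against 3. The means of 53.5 ± 5.94 and 37.1 ± 5.83 (SD, n = 3 each) differed 1.44-fold. The log2 fold change was 0.52 with a standard error of 0.21 and a 95% interval from 0.06 to 0.98, and it was 0.35 relative to the median of all genes. With limma the unadjusted p-value was 0.0301 and the adjusted p-value 0.274. With median-of-ratios scaling the log2 fold change was 0.33 (limma, unadjusted p = 0.104), and leaving out single libraries gave 0.44 to 0.64 (limma, unadjusted p = 0.0267 to 0.0924). Of the 3 epiblast markers given above, *Nanog* and *Pou5f1* were also apart between the groups in this direction and *Sox2* was not, and their part in this difference was not tested. A processed pseudogene on chromosome X, *Gm1848*, shares 9.71% of the 50-base stretches of *Atp1b3*, and had 1.74 to 2.18 FPKM in oEV-EMT and 0.506 to 1.41 in oEV-ctrl.

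*Atp1b2* (ENSMUSG00000041329), the β2 subunit known mainly from the nervous system, lies on the minus strand of chromosome 11 from 69599736 to 69605942. It had 0.138, 0.155 and 0.174 FPKM in oEV-EMT and 0.0620, 0.139 and 0.124 in oEV-ctrl. The groups overlapped (exact permutation test of log2(FPKM + 1), p = 0.2). *Atp1b2* thus stood far below the other β subunits in every library.

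The groups did not overlap in the balance of the β subunits. *Atp1b3* by itself was already apart, as were 18.1% of all genes in the same direction. How often ratios of other genes are apart was not counted. *Atp1b1* was above *Atp1b3* in 3 of 3 oEV-ctrl libraries and in 0 of 3 oEV-EMT libraries. The ratio of *Atp1b3* to *Atp1b1* FPKM was 1.16, 1.035 and 1.47 with oEV-EMT and 0.770, 0.755 and 0.8425 with oEV-ctrl. These ratios include the stretch that *Atp1b1* shares with *Nme7*. Of the FPKM summed over *Atp1b1*, *Atp1b2* and *Atp1b3*, *Atp1b3* held 53.6%, 50.8% and 59.3% in oEV-EMT and 43.5%, 42.9% and 45.7% in oEV-ctrl. The means were 54.6% ± 4.34 and 44.0% ± 1.45 (SD, n = 3 each), 10.6 percentage points apart and without overlap. The exact two-sided permutation test gave p = 0.1, the smallest possible here, and an adjusted p of 0.3 over the 3 ratios tested, so the difference did not pass. A ratio within a library does not depend on the scaling between libraries. Leaving out single libraries gave 8.19 to 12.5 percentage points, lowest without oEV-EMT 3, whose *Atp1b1* was the lowest of all. With *Gm1848* added to *Atp1b3*, an alternative chosen after seeing the data, the difference was 10.8 percentage points.

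**Figure D2:**
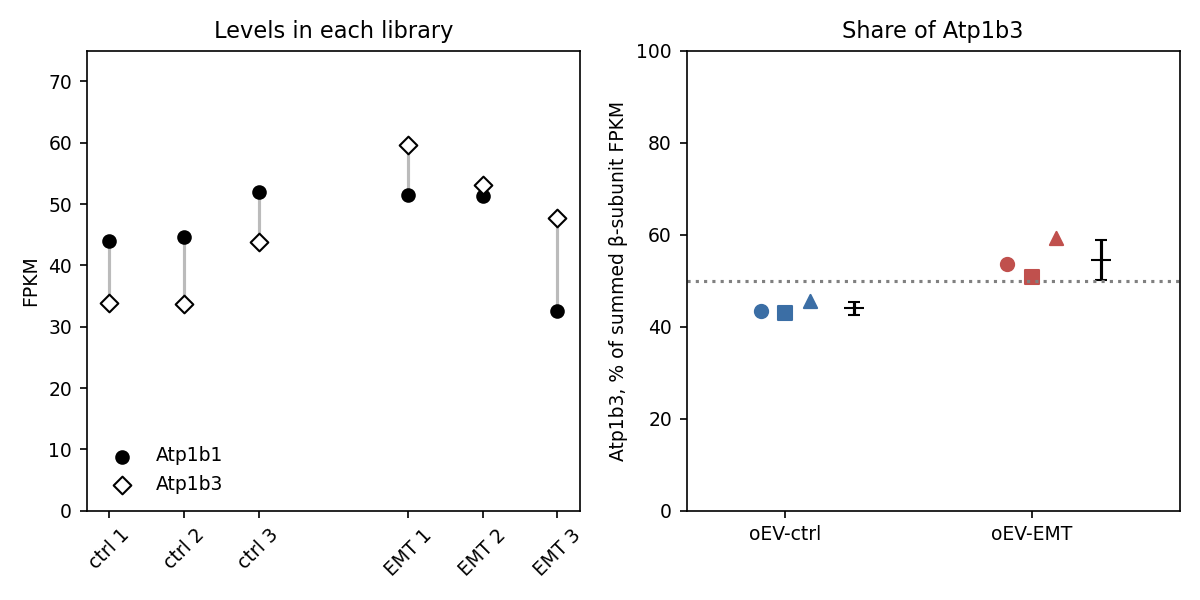
Left, FPKM of *Atp1b1* (filled circles) and *Atp1b3* (open diamonds) in each library. Right, the share of *Atp1b3* in the summed FPKM of the β subunits in percent, with mean and SD of the 3 libraries per group and a dotted line at 50%. The 3 oEV-EMT libraries lie between 50.8% and 59.3%, and the 3 oEV-ctrl libraries between 42.9% and 45.7%.

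Among the FXYD genes, *Fxyd4* was the highest, with 152, 149 and 177 FPKM in oEV-EMT and 95.5, 144 and 97.9 in oEV-ctrl. Its lowest oEV-EMT value lay just above its highest oEV-ctrl value, and the log2 fold change was 0.52 (limma, unadjusted p = 0.0367 and adjusted p = 0.293). With median-of-ratios scaling it was 0.32 (limma, unadjusted p = 0.213), and leaving out single libraries gave unadjusted limma p-values above 0.05 for *Fxyd4* in all cases but that of oEV-ctrl 2, up to 0.131. *Fxyd6* had 8.003, 7.43 and 8.31 FPKM in oEV-EMT and 4.13, 4.73 and 4.91 in oEV-ctrl. Here the groups did not overlap, with a log2 fold change of 0.67 (95% interval 0.22 to 1.13, limma adjusted p = 0.191). *Fxyd5* had 3.31 to 8.56 FPKM in oEV-EMT and 2.94 to 6.21 in oEV-ctrl, with overlap. Of the 12 other pump subunits listed, 5 were tested, 0 were called, and 2 (*Fxyd4* and *Fxyd6*) were higher in oEV-EMT with an unadjusted p-value up to 0.05, beside 12.8% of all genes.

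*Slc9a3* (ENSMUSG00000036123), the exchanger NHE3 that brings sodium into epithelial cells in return for protons, lies on the plus strand of chromosome 13 from 74121457 to 74169442. It was listed at 0 in 4 of the 6 libraries, with 0.0041 FPKM in oEV-EMT 1 and 0.0084 in oEV-ctrl 3. No comparison could be made at this level. Another 15 genes of sodium entry and chloride transport were listed, of which 4 were tested, 0 called, and 1 was higher with an unadjusted p-value up to 0.05, beside 12.8% of all genes. That was *Slc9a8*, an exchanger of internal membranes, at 5.27, 5.60 and 6.38 FPKM in oEV-EMT and 2.70, 3.45 and 3.98 in oEV-ctrl. The groups did not overlap, and the log2 fold change was 0.63 (95% interval 0.14 to 1.12, limma adjusted p = 0.232). Without oEV-ctrl 1 the unadjusted limma p-value of *Slc9a8* was 0.0648. The anion exchanger *Slc4a2* had a mean of 3.71 ± 0.930 in oEV-EMT and 3.51 ± 0.746 in oEV-ctrl (SD, n = 3 each). The epithelial sodium channel genes *Scnn1a*, *Scnn1b* and *Scnn1g* were at most 0.203 FPKM in any library. Of the 3 subunit genes of the related proton pumps, 1 was tested, *Atp12a*, with a log2 fold change of 0.18 (limma, adjusted p = 0.764), which was -0.04 without oEV-EMT 1 and 0.38 without oEV-EMT 3.

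**Figure D3:**
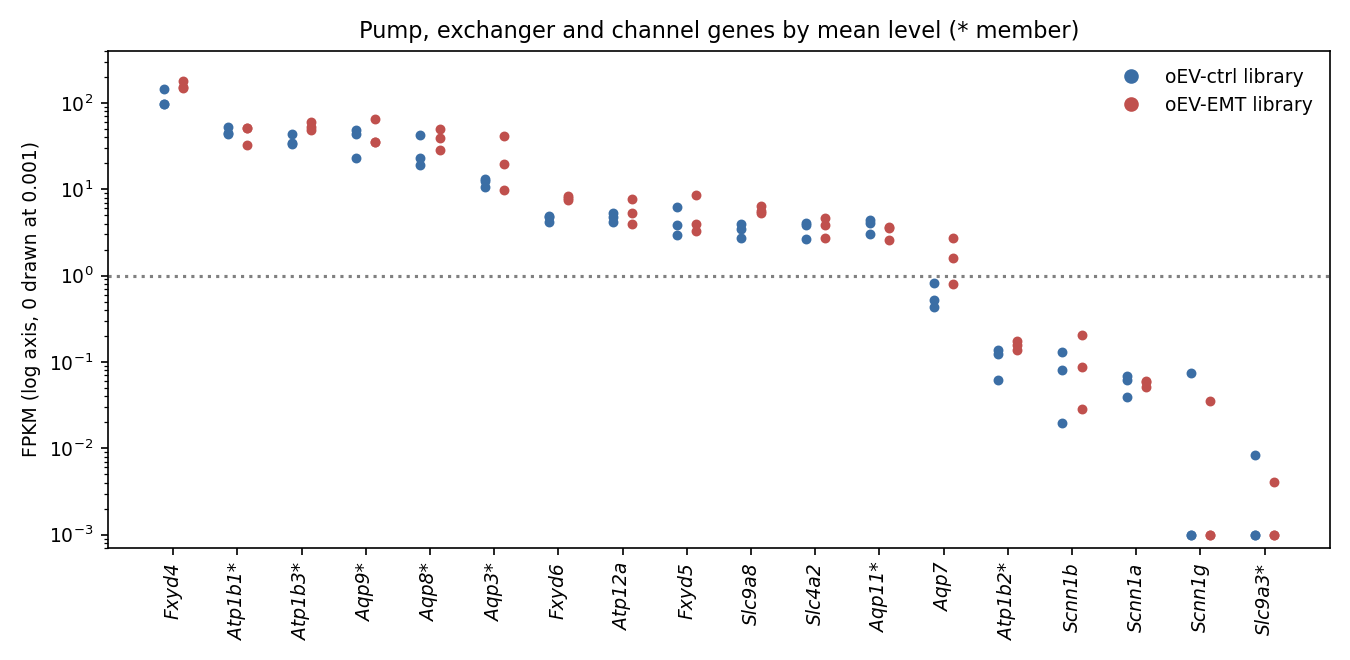
FPKM of the members and of the pump, transport and aquaporin genes named in the text in each library on a log axis, in order of the mean over 6 libraries, with values of 0 drawn at 0.001 and a dotted line at 1 FPKM. Asterisks mark the 8 members, of which 6 lie above 1 FPKM in every library, while *Atp1b2* is at most 0.174 and *Slc9a3* at most 0.0084.

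*Aqp3* (ENSMUSG00000028435), an aquaglyceroporin that passes water and glycerol, lies on the minus strand of chromosome 4 from 41092722 to 41098183. It had 40.9, 19.7 and 9.71 FPKM in oEV-EMT and 12.4, 10.5 and 13.2 in oEV-ctrl. The oEV-EMT libraries ran from the lowest to the highest of all 6, and the oEV-ctrl libraries lay within them. The means were 23.4 ± 15.9 and 12.03 ± 1.39 (SD, n = 3 each), and the log2 fold change was 0.70 (95% interval -0.29 to 1.68, limma adjusted p = 0.475). Without oEV-EMT 1 the log2 fold change was 0.20, and without oEV-EMT 3 it was 1.18 (limma, adjusted p = 0.174).

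*Aqp8* (ENSMUSG00000030762), a channel for water that lies on the plus strand of chromosome 7 from 123462291 to 123468004, had 49.8, 39.4 and 28.7 FPKM in oEV-EMT and 42.8, 18.9 and 23.0 in oEV-ctrl. The single oEV-ctrl library 1 was as high as the oEV-EMT libraries. The log2 fold change was 0.51 (95% interval -0.19 to 1.22, limma adjusted p = 0.467), and it was 0.28 without oEV-ctrl 2, 0.33 without oEV-EMT 1 and 0.85 without oEV-ctrl 1.

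*Aqp9* (ENSMUSG00000032204), another aquaglyceroporin, lies on the minus strand of chromosome 9 from 71110659 to 71168682. Its FPKM was 65.5, 35.0 and 34.7 in oEV-EMT and 23.1, 48.9 and 43.6 in oEV-ctrl, so that the highest value was in oEV-EMT 1 and the lowest in oEV-ctrl 1. The fold change on the log2 scale was 0.22 (95% interval -0.52 to 0.97, limma adjusted p = 0.775), and its sign turned when either of these libraries was left out, to -0.07 and -0.10.

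*Aqp11* (ENSMUSG00000042797), a distant member of the family that lies in internal membranes, is on the minus strand of chromosome 7 from 97724006 to 97738289. It was the lowest of the 4 aquaporins, with 3.59, 3.64 and 2.56 FPKM in oEV-EMT and 3.005, 4.06 and 4.41 in oEV-ctrl. The groups overlapped, and the log2 fold change was -0.18 (95% interval -0.69 to 0.33, limma adjusted p = 0.741). It was -0.05 without oEV-EMT 3, -0.09 without oEV-ctrl 3 and -0.31 without oEV-ctrl 1. The remaining 8 aquaporin genes were below the filter. Of these, *Aqp1*, *Aqp2*, *Aqp4*, *Aqp6* and *Aqp12* were listed at 0 in every library, and *Aqp7* had the most, from 0.429 to 2.73 FPKM.

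The 2 aquaglyceroporins *Aqp3* and *Aqp9* held 66.6%, 55.9% and 58.7% of the FPKM summed over the 4 aquaporins in oEV-EMT and 43.6%, 72.1% and 67.4% in oEV-ctrl. The means of 60.4% ± 5.54 and 61.0% ± 15.3 (SD, n = 3 each) were closer than the spread within the groups (exact permutation test, p = 0.9). The summed FPKM of the 4 aquaporins was 75.7 to 160 in oEV-EMT and 81.3 to 84.2 in oEV-ctrl. The highest sum was that of oEV-EMT 1, which had the highest value of the 6 libraries in 4 of the 6 tested members, namely *Atp1b3*, *Aqp3*, *Aqp8* and *Aqp9*. The other 2, *Atp1b1* and *Aqp11*, were highest in oEV-ctrl 3. How many of all genes tested were highest in oEV-EMT 1 was not counted. This library also had the highest factor in the median-of-ratios scaling, 1.148, where the others had 0.898 to 1.083. It was the deepest as judged by the steps in its low values, and had the lowest sum of FPKM. The part of any of these in its values was not tested.

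By mean FPKM over the 6 libraries the order was *Atp1b1* with 46.0, *Atp1b3* with 45.3, *Aqp9* with 41.8, *Aqp8* with 33.8, *Aqp3* with 17.7, *Aqp11* with 3.54, *Atp1b2* with 0.132 and *Slc9a3* with 0.00208. The order of the first 4 was not the same in all libraries. *Atp1b1* was above *Atp1b3* in 3 of 3 oEV-ctrl and 0 of 3 oEV-EMT libraries. *Atp1b3* was above *Aqp9* in 4 of 6 libraries (2 in each group), and *Aqp9* above *Aqp8* also in 4. From *Aqp8* downward the order was the same in all 6 libraries.

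Genes that act on the pump, the exchanger and the channels were listed as well, and 8 of 11 were tested, with 0 called and 2 higher in oEV-EMT with an unadjusted p-value up to 0.05, *Sgk1* and *Mapk14*, beside 12.8% of all genes. *Sgk1*, a kinase that raises sodium transport in epithelia, had 197, 120 and 146 FPKM in oEV-EMT and 76.9, 103 and 99.1 in oEV-ctrl. The groups were apart, with a log2 fold change of 0.71 (95% interval 0.19 to 1.22, limma adjusted p = 0.213). *Slc9a3r1*, a scaffold that binds NHE3, had 58.2 ± 5.98 FPKM in oEV-EMT and 51.2 ± 7.27 in oEV-ctrl (SD, n = 3 each). *Ezr*, which links such scaffolds to actin, had 19.6 ± 4.54 and 16.2 ± 1.77. Over all 49 genes of these lists, 18 were tested. Of these, 5 were higher in oEV-EMT with an unadjusted p-value up to 0.05 and 0 lower, beside 12.8% and 2.55% of all genes, and the median log2 fold change was 0.22, beside 0.17 over all genes.

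**Figure D4:**
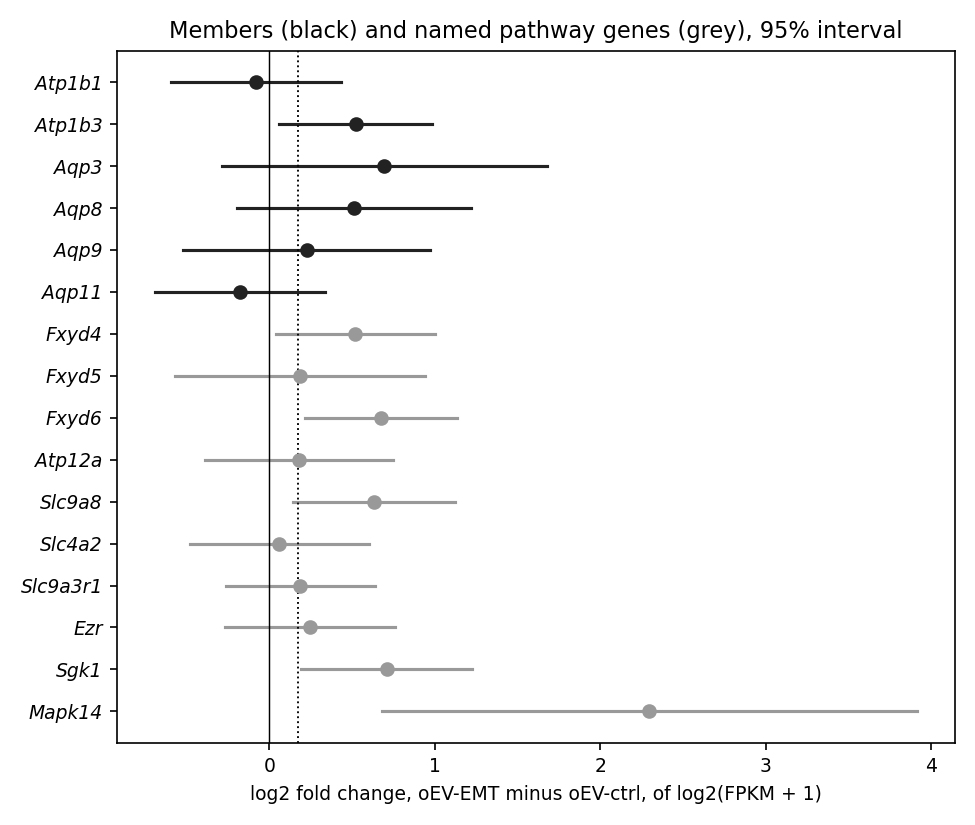
Log2 fold change of log2(FPKM + 1), oEV-EMT minus oEV-ctrl, with its 95% interval from limma, for the 6 tested members (black) and 10 tested pathway genes (grey). These are the tested pathway genes named in the text except *Wnk1* and *Oxsr1*, which are not drawn. The log2 fold change of *Wnk1* was -0.63, with an interval from -1.25 to 0.0007. That of *Oxsr1* was -0.29, with an interval from -0.83 to 0.24. The dotted line marks the median of all genes at 0.17, and among the members only the interval of *Atp1b3*, 0.06 to 0.98, does not include 0.

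The genes most like each member in pattern were sought by the root mean square difference of log2(FPKM + 1) over the 6 libraries, after subtraction of each gene's mean, among 9589 tested protein-coding genes. For *Atp1b3* these were *Bloc1s2* at 0.04 and *Gtf2h1* at 0.04, where the median over all candidates was 0.32. For *Atp1b1* they were *Cpt1a* at 0.05 and *Arhgap42* at 0.05. For *Aqp3*, the nearest were *Hcfc1* at 0.10 and *Tmppe* at 0.15, and for *Aqp8*, *Samm50* at 0.13 and *Ckb* at 0.14. For *Aqp9* they were *Mab21l3* at 0.08 and *Zcchc8* at 0.12, and for *Aqp11*, *Pls1* at 0.04 and *Gm21992* at 0.05.

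**Figure D5:**
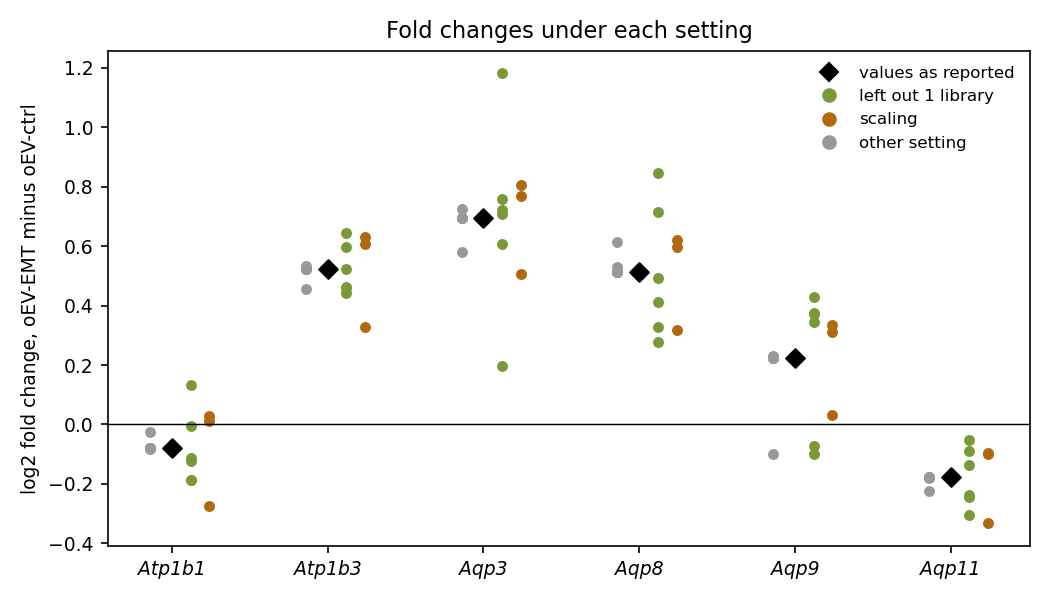
Log2 fold change of the 6 tested members as reported (diamonds) and under each alternative (circles), coloured by kind: a library left out, another scaling between libraries, or another setting of the filter, pseudocount or fit. *Atp1b3*, *Aqp3* and *Aqp8* stay above 0 and *Aqp11* below 0 under all of these, while *Atp1b1* and *Aqp9* cross 0.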

How the data were processed

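The authors aligned reads to mm10 and assembled transcripts with StringTie. Their methods name TPM, but the values they deposited sum to 1293175 to 1551567 per library and were taken as FPKM. The aligner is not given in the sources used here. Symbols and coordinates came from GENCODE M21 (GRCm38), which matched 55141 of 55774 rows. Genes that reached 1 FPKM in 3 or more libraries were fitted as log2(FPKM + 1) with limma 3.58.1 in R 4.3.3 (trended, robust), without further scaling. On simulated data for the 11924 genes, 200 genes were shifted in each of 5 runs. Of those shifted by a log2 change of 2, 82.2% were called, as were 29 unshifted genes over these runs. Of those shifted by 1, 0% were called, while 90.2% had an unadjusted limma p-value of at most 0.05. The share called depends on how many genes change, and other numbers were not simulated. Ratios within libraries were tested by exact permutation (two-sided). Shared sequence was searched in stretches of 50 bases. Named were all members, up to 3 tested genes of highest mean in each pathway list, and the 2 nearest in pattern. Some pathway genes, and 1 of the 3 ratios tested, are not reported here. The members and lists were chosen with earlier results of these data known. Alternatives covered scaling, pseudocount, filter, variance, library weights, a replicate block and the omission of single libraries. Figures were drawn with matplotlib 3.10.9.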

Additional observations from a re-analysis of the deposited data

How the results depend on the processing

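Over all genes tested, the number past both thresholds was 0 as reported, 104 with library weights and 21 with the replicate block, and 0 to 17 when single libraries were left out (4 without oEV-EMT 1, 1 without oEV-EMT 3, 17 without oEV-ctrl 3). None of these calls was a member under any alternative run. Whether the replicate numbers pair the libraries is not given in the sources used here. The deviations of same-numbered libraries correlated at 0.12, -0.04 and 0.04 across genes, and those of differently numbered libraries at -0.13 to 0.12. Deviations from means of 3 libraries cannot settle this. Under the block the smallest adjusted limma p-value was 0.00308, against 0.0934 without it. By limma, 0 members had an unadjusted p-value of at most 0.05 under the block, against 1 without it. For *Atp1b1* the log2 fold change of -0.08 became 0.012 after scaling to a sum of 1000000, 0.028 after scaling over Ensembl rows and 0.13 without oEV-EMT 3 (-0.19 to 0.13 over the omitted libraries). For *Aqp9* 0.22 became -0.10 with library weights and -0.10 to 0.43 when single libraries were left out. *Atp1b3*, *Aqp3*, *Aqp8* and *Aqp11* kept their direction under the alternatives run, except that a filter on a mean of 5 FPKM left *Aqp11* untested. The cause of these shifts was not tested. The difference in the share of *Atp1b3* between the groups kept its direction under all alternatives run. It was 10.6 percentage points as reported and also in the replicate block, where the exact sign-flip test gave p = 0.25, the smallest possible there. From the group means it was 10.0. The difference in the aquaglyceroporin share, -0.63 percentage points, was 0.52 from the group means and ran from -9.33 to 4.89 when single libraries were left out. Median-of-ratios scaling moved the median log2 fold change of all genes from 0.17 to 0.01. The scale does not resolve *Slc9a3* or *Atp1b2*, and changes of 1 on the log2 scale were not called in a simulation that shifted 200 genes.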

Other observations

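The following genes of the pathway lists were chosen after their values were seen. *Mapk14*, the kinase p38α, had 15.1, 7.84 and 7.75 FPKM in oEV-EMT and 0.306, 0.263 and 5.39 in oEV-ctrl. The groups did not overlap, and the log2 fold change was 2.30 with a 95% interval from 0.68 to 3.91 (limma, adjusted p = 0.216). It was 3.07 without oEV-ctrl 3 (limma, unadjusted p = 1.84e-06) and 1.90 without oEV-ctrl 2, and 1.79 with library weights (limma, unadjusted p = 0.0621). The oEV-ctrl libraries themselves were split, with a pair near 0 and oEV-ctrl 3 close to the oEV-EMT libraries. *Stk39*, a kinase that controls chloride-coupled transport, was under the filter and went the other way, with 0.0959, 0.0981 and 0.119 FPKM in oEV-EMT and 0.323, 0.313 and 0.378 in oEV-ctrl (exact permutation test of log2(FPKM + 1), p = 0.1, the smallest possible). Of the genes tested, to which *Stk39* does not belong, 4.34% had every oEV-EMT library below every oEV-ctrl library. *Wnk1*, the kinase upstream of *Stk39*, had 16.6, 8.01 and 8.43 FPKM in oEV-EMT and 16.4, 19.01 and 14.8 with oEV-ctrl, a log2 fold change of -0.63 (limma, unadjusted p = 0.0502 and adjusted p = 0.326). In *Wnk1* the library oEV-EMT 1 lay among the oEV-ctrl libraries, and without it the log2 fold change was -0.94 (limma, unadjusted p = 0.00186). Another kinase of this list, *Oxsr1*, had 10.1, 5.91 and 6.76 FPKM in oEV-EMT and 10.4, 8.45 and 9.14 in oEV-ctrl. Its groups overlapped, with a log2 fold change of -0.29 (limma, unadjusted p = 0.254).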
